A study of Saccharomyces cerevisiae with 9 samples.

Results

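The pentose phosphate pathway genes are the 10 yeast genes ZWF1, SOL3, SOL4, GND1, GND2, RKI1, RPE1, TKL1, TKL2 and TAL1, which encode the enzymes of that route. They are the pathway's enzyme genes picked by name from the 6256 genes on the array, a rule that uses no measured value, and all 10 were on it and entered the test with 5865 genes in all. Each gene had 1 probe, printed on 2 spots for SOL3, GND1, RPE1, TKL2 and TAL1 and on 1 spot for the other 5. All 10 were well above background in both channels on all 9 arrays and none was saturated, so every ratio of the 10 was measured on both sides. TKL2 was dim in the strain BY4716, where its signal was 1.87 to 2.36 times background.

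The pathway runs beside glycolysis. Its oxidative branch turns glucose 6-phosphate into ribulose 5-phosphate and is a main source of NADPH, the reducing power for biosynthesis and for repair of oxidative damage. Its non-oxidative branch interconverts sugar phosphates, supplies ribose for nucleotides and erythrose 4-phosphate for aromatic amino acids, and returns carbon to glycolysis. Among the 10 are 3 pairs of similar genes, of which in Saccharomyces cerevisiae GND1, TKL1 and SOL3 are usually held to be the major and GND2, TKL2 and SOL4 the minor copy.

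Messenger RNA was measured in 5 strains on 9 Agilent arrays, each comparing a strain in Cy5 with the same Cy3 reference, a mix of BY4716 and RM11-1a RNA from cells on glucose and on ethanol. BY4716, the laboratory parent, and RM11-1a, the parent of vineyard origin, had 3 arrays each, with the replicate labels 7, 9 and 11. The exchange strains had 1 array each, namely YAD350 (also labelled YLK723) with MKT1 D30G in BY4742, YLK804 with the RM allele of SAL1 in BY4724, and YLK806 with the SAL1 allele of BY placed in RM11-1a. All were grown in minimal medium on 2% glucose with leucine, lysine and uracil, and YAD350 alone also had 20 mg/L histidine. MKT1 encodes a regulator of messenger RNAs and SAL1 a carrier in the mitochondrial inner membrane. BY4742 and BY4724 are not BY4716, so YAD350 and YLK804 differ from BY4716 by more than the exchanged allele. The auxotrophic markers show it, since URA3 stood at a log2 ratio of -2.89 in YAD350 and -3.47 in YLK804 but between 1.35 and 1.40 in BY4716, and HIS3 was low in YAD350 alone, at -4.20. The mating type receptor gene STE2 was high in YLK804, at 1.37, and low in BY4716, between -3.52 and -3.24. The parents differ in such markers too. In RM11-1a STE2 lay between 1.48 and 1.67 and URA3 between -2.63 and -2.42. LEU2 lay between -2.85 and -2.71 in RM11-1a and between 1.18 and 1.31 in BY4716. In RM11-1a the Cy5 signal of LEU2 was not well above background on any array, nor that of URA3 in replicates 7 and 11. LYS2 was low in BY4716, between -3.31 and -3.02, and lay between 0.91 and 0.99 in RM11-1a. The parental comparison is therefore also one of mating types and auxotrophies. These markers matched the strain names on all 9 arrays.

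For the exchange strains the labels disagree on which dye carried the strain. They were read as Cy5, and the log2 ratios of all genes then correlated with those of BY4716, or of RM11-1a for YLK806 (r = 0.81 in YAD350, 0.88 on the YLK804 array and 0.89 on the YLK806 array). Median strain signals per array ran from 237 to 424 over Cy5 backgrounds of 25 to 32, and the number of arrays sets the precision. YLK804 and YLK806 were scanned together on a day of their own and with another version of the image software. No label says that replicates came from separate cultures, so the tests cover the spread between arrays, which may be technical. Culture RNA also cannot tell fewer expressing cells from less RNA per cell.

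**Figure D1:**
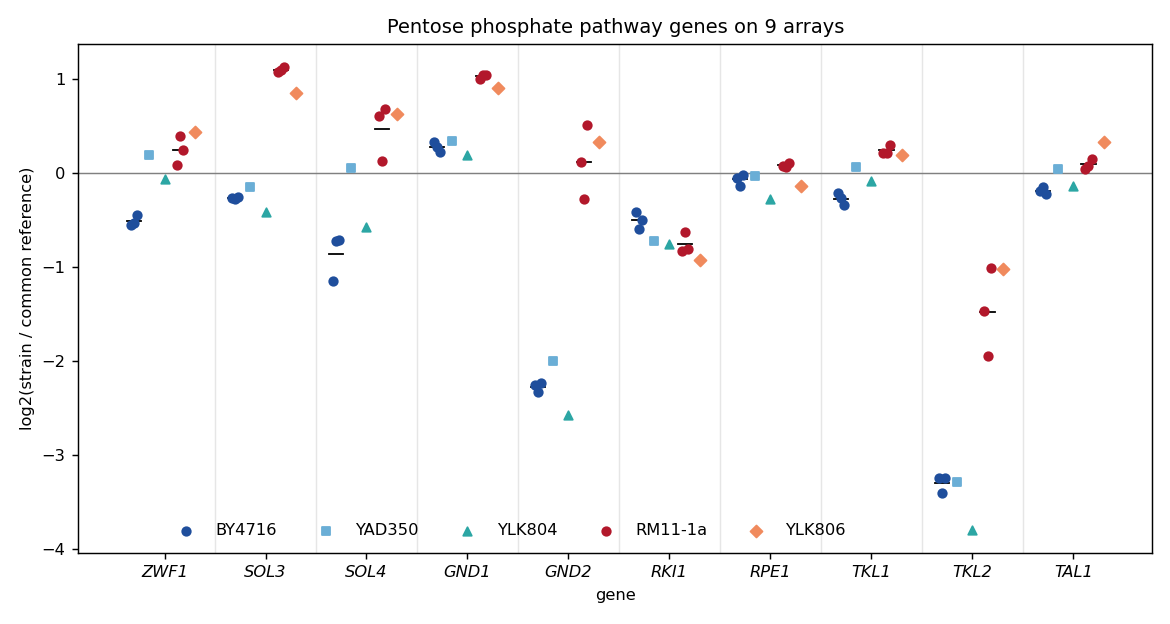
The log2 ratio of strain over common reference (vertical axis) is plotted for each of the 10 genes (horizontal axis), with a point for every array, coloured by strain, and a short line at the mean of the 3 BY4716 and the 3 RM11-1a arrays. GND2 and TKL2 lie furthest apart between the laboratory strains (blue shades) and the vineyard strains (red and orange), with ranges of 3.08 and 2.79 over the 9 arrays, whereas RPE1 spans 0.38.

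The parental comparison asks how the pathway differs between the laboratory and the vineyard strain on glucose. All 10 genes passed the test, against 63.0% of all genes. In RM11-1a 9 of the 10 rose relative to BY4716, against 33.1% of all genes, and RKI1 alone fell, against 29.9%. The median difference over the 10 was 0.76 on the log2 scale, beside 0.0055 over all genes. The arrays of the parents did not overlap for any of the 10, which was true of 70.2% of all genes. The differences ran from a 5.25-fold rise of GND2 to a 1.11-fold rise of RPE1 and a 1.19-fold fall of RKI1. Values are limma fits with a Benjamini-Hochberg adjusted p under 0.05 as the threshold, and the errors are the standard error (SE) of the fit.

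The oxidative branch begins with ZWF1, glucose 6-phosphate dehydrogenase, the committed step of the pathway. ZWF1 stood at log2 ratios of -0.56, -0.53 and -0.44 in BY4716 and at 0.09, 0.40 and 0.25 in RM11-1a (replicates 11, 7 and 9 here and below). The RM11-1a arrays were all higher, by 0.76 ± 0.08 (SE) or 1.69-fold, with an adjusted p of 9.17e-05 from limma. YAD350 stood at 0.19, YLK804 at -0.07 and YLK806 at 0.44, so the array of YAD350, a laboratory strain, lay inside the range of RM11-1a.

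The lactonase step, which opens the ring of the first product, is encoded by SOL3 and SOL4. SOL3 gave -0.26, -0.27 and -0.26 in BY4716 and 1.08, 1.10 and 1.13 in RM11-1a. Its replicates were the tightest of the 10 genes in BY4716, with an SD of 0.0073 (n = 3), and the parents differed by 1.37 ± 0.03 or 2.58-fold (limma adjusted p 6.40e-08). YAD350 and YLK804 lay near BY4716 at -0.15 and -0.41, and YLK806 lay nearer to RM11-1a at 0.86. SOL4 gave -1.15, -0.73 and -0.72 in BY4716 and 0.61, 0.13 and 0.68 in RM11-1a, a difference of 1.34 ± 0.17 or 2.53-fold (limma adjusted p 0.00031). Both copies therefore differed by nearly the same amount between the parents, but SOL4 spread more among arrays of each strain. In YAD350 SOL4 stood at 0.05, between the parents, while YLK804 at -0.57 was the next highest laboratory array.

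Phosphogluconate dehydrogenase, which releases carbon dioxide and the pathway's other NADPH, is encoded by GND1 and GND2. GND1 was above the reference on every array, at 0.33, 0.28 and 0.22 in BY4716 and 1.01, 1.04 and 1.05 in RM11-1a. The difference was 0.76 ± 0.04 or 1.69-fold (limma adjusted p 3.38e-06). GND2 was far below the reference in BY4716, at -2.25, -2.33 and -2.24, and near it in RM11-1a, at 0.12, -0.28 and 0.51. The minor copy differed by 2.39 ± 0.17 or 5.25-fold (limma adjusted p 1.78e-05), more than 99.0% of all genes by size. YAD350 and YLK804 held low GND2 values of -2.00 and -2.57 and YLK806 a high value of 0.33, so no laboratory array came near a vineyard array.

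The isomerases of the non-oxidative branch differed least. RKI1, which makes ribose 5-phosphate, gave -0.41, -0.59 and -0.50 in BY4716 and -0.82, -0.62 and -0.81 in RM11-1a, a fall of 1.19-fold (-0.25 ± 0.07, limma adjusted p 0.0142). The nearest arrays of the parents, at -0.59 and -0.62, lay closer together than the SD of either strain (0.09 and 0.11, n = 3), and the laboratory strains YAD350 and YLK804, at -0.72 and -0.75, lay within the range of RM11-1a. YLK806 was lower, at -0.92. RPE1, the ribulose phosphate epimerase, gave -0.05, -0.13 and -0.02 in BY4716 and 0.08, 0.07 and 0.11 in RM11-1a, a rise of 1.11-fold (0.15 ± 0.04, limma adjusted p 0.0127). This was the smallest parental difference of the 10, larger than those of 43.2% of all genes, and with scan day as a block it no longer passed (0.13). That blocked value rests on the only scan day with both parents, which held replicate 9 of each. For RKI1 the call was lost without replicate 11 of BY4716 (-0.21, limma adjusted p 0.0544).

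Transketolase, which moves carbon pairs between sugar phosphates, is encoded by TKL1 and TKL2. TKL1 gave -0.21, -0.26 and -0.34 in BY4716 and 0.22, 0.22 and 0.30 in RM11-1a, a rise of 0.52 ± 0.05 or 1.43-fold (limma adjusted p 4.65e-05). TKL2 had the lowest ratios of the 10 on every array, at -3.25, -3.40 and -3.25 in BY4716 and -1.47, -1.95 and -1.01 in RM11-1a. Its rise was 1.82 ± 0.21 or 3.54-fold (limma adjusted p 0.000173). TAL1, transaldolase, gave -0.19, -0.15 and -0.22 in BY4716 and 0.05, 0.08 and 0.16 in RM11-1a, a rise of 0.28 ± 0.04 or 1.22-fold (limma adjusted p 0.000687).

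The size of the TKL2 and GND2 differences depends on the background correction, because the offset of 50 added to each signal draws ratios of dim spots toward 0. In the deposited scanner ratios, made without that offset, the 3 BY4716 arrays averaged -4.84 ± 0.15 (SD) for TKL2 and the 3 RM11-1a arrays -1.71 ± 0.64 (SD), a difference of 3.13 or 8.76-fold. GND2 differed there by 3.14 or 8.80-fold. The other 8 genes moved less, for example SOL4 to 1.45 and RKI1 to -0.35. On the scan day shared by BY4716 and RM11-1a, which held replicate 9 of each, all 10 genes differed in the same direction, with GND2 at 2.74, TKL2 at 2.24, SOL3 at 1.39, GND1 at 0.83, RKI1 at -0.31 and RPE1 at 0.13.

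YLK806 and YLK804 give a further comparison of a vineyard with a laboratory background, on arrays that share none with the parents. Here 8 of the 10 genes passed, against 41.1% of all genes, and all 8 were higher in YLK806, against 22.1%. GND2 was 7.46-fold higher (2.90 ± 0.30), TKL2 6.87-fold (2.78 ± 0.36), SOL3 2.41-fold, SOL4 2.30-fold, GND1 1.65-fold, ZWF1 1.42-fold, TAL1 1.38-fold and TKL1 1.21-fold. In the deposited scanner ratios GND2 was 10.4-fold and TKL2 12.9-fold higher. TKL1 did not pass with an offset of 0, the deposited ratios or median centring (limma adjusted p 0.0502, 0.0702 and 0.0817). RKI1 at -0.17 (95% interval -0.45 to 0.10) and RPE1 at 0.14 (-0.03 to 0.30) did not pass, and both had the sign of the parental difference. With 1 array per strain the spread was borrowed from the parental arrays. The strains also carry opposite SAL1 alleles, each that of the other parent, and they share a scan day. YLK804 is in BY4724 and not BY4716. Unlike the parents, YLK804 and YLK806 were alike in STE2 (1.37 and 1.52) and URA3 (-3.47 and -3.04). They still differed in LEU2 (1.14 and -3.53) and LYS2 (-3.84 and 1.00).

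The difference between these background differences was tested for each gene. It mixes the SAL1 alleles with mating type, URA3 and the BY4724 background, which cannot be told apart. None of the 10 passed with limma, against 0.853% of all genes, and 1, TKL1, had an unadjusted p under 0.05 (-0.24 ± 0.09, p 0.0312 from the limma fit, adjusted p 0.399). TKL2 differed more between the SAL1 strains than between the parents by 0.96, with a 95% interval of -0.0039 to 1.92. For GND2 the same value was 0.51, with an interval of -0.29 to 1.31. Both sizes depend on the background correction. In the deposited scanner ratios TKL2 differed by 3.69 between the SAL1 strains and by 3.13 between the parents. GND2 differed there by 3.37 and 3.14. Under the 14 alternatives the TKL2 value ran from 0.56 to 1.19 and the GND2 value from 0.23 to 0.70. For TKL2, YLK804 minus BY4716 was -0.50 in the main fit but 0.09 in the deposited ratios. The intervals for SOL3 (-0.25 to 0.05) and GND1 (-0.22 to 0.15) were the narrowest among the oxidative genes.

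**Figure D2:**
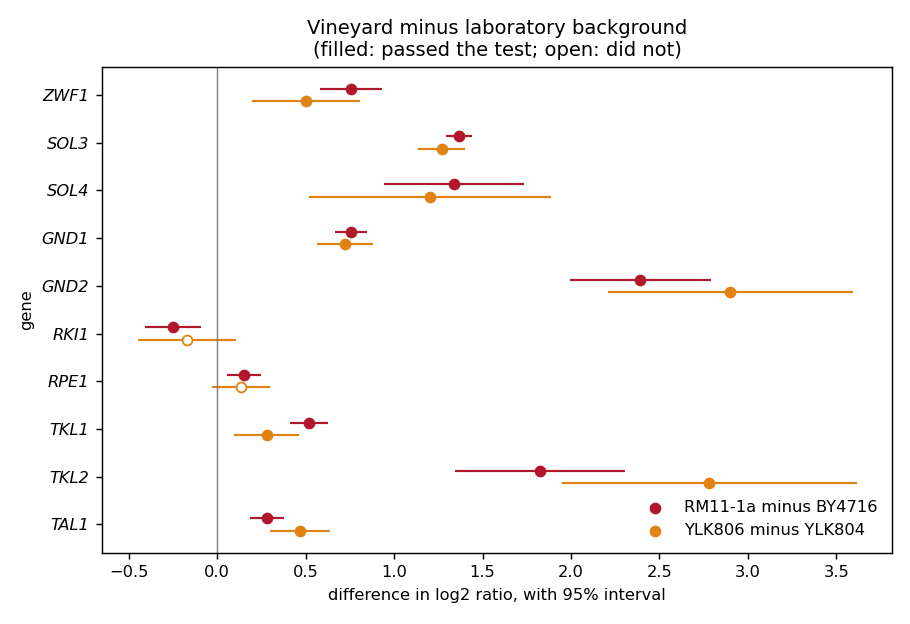
The difference in log2 ratio between a vineyard and a laboratory background strain (horizontal axis) is drawn for each gene (vertical axis) with its 95% interval, in red for RM11-1a minus BY4716 and in orange for YLK806 minus YLK804, filled where it passed the test. The points of both comparisons lie on the same side of 0 for all 10 genes, and GND2 and TKL2 have the largest values in each.

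Over all 9 arrays, the 5 of laboratory background and the 4 of vineyard background did not overlap for 6 of the 10 genes, against 34.4% of all genes. These were SOL3, SOL4, GND1, GND2, TKL1 and TKL2, which are the members of the 3 paralog pairs. The margin was wide for GND2, where the highest laboratory value was -2.00 and the lowest vineyard value -0.28, and narrow for SOL4, at 0.05 and 0.13. ZWF1, TAL1, RKI1 and RPE1 overlapped, in ZWF1 and TAL1 through the YAD350 array.

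Within each pair, the gap between the log2 ratios of the major and the minor copy was compared between backgrounds. A gap is a difference of ratios against the reference, not of transcript levels. For GND1 minus GND2 the gap was 2.58, 2.62 and 2.46 in BY4716, 2.34 in YAD350 and 2.76 in YLK804, but 0.88, 1.32 and 0.54 in RM11-1a and 0.58 in YLK806. It was smaller by 1.72 in the vineyard background, with no overlap (mean 2.55 ± 0.16, SD, n = 5, against 0.83 ± 0.36, SD, n = 4; two-sided exact permutation p 0.0159, the smallest this design can give, 0.0238 after adjustment over the 3 pairs).

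For TKL1 minus TKL2 the BY4716 arrays gave gaps of 3.03, 3.14 and 2.91, YAD350 gave 3.36 and YLK804 gave 3.72, against 1.69, 2.17 and 1.31 in RM11-1a and 1.22 in YLK806. It was smaller by 1.64 in the vineyard background, again without overlap (two-sided exact permutation p 0.0159, adjusted 0.0238, n = 5 and 4). SOL3 minus SOL4 behaved otherwise, with 0.89, 0.45 and 0.46 in BY4716, and with 0.46, 0.97 and 0.45 in RM11-1a. YAD350 gave -0.20, YLK804 gave 0.16 and YLK806 gave 0.23. The backgrounds overlapped and the mean gap differed by 0.18 (exact permutation p 0.444, n = 5 and 4). The lowest SOL gap belonged to YAD350, where SOL4 was high. The sizes of the GND and TKL gaps depend on the offset of 50, which draws ratios of dim spots toward 0. In the deposited scanner ratios BY4716 averaged -0.26 for TKL1 and -4.84 for TKL2, and RM11-1a 0.24 and -1.71. For GND1 and GND2 BY4716 averaged 0.29 and -2.96 there, and RM11-1a 1.04 and 0.18. The YLK804 array stood there at -0.07 for TKL1 and -4.75 for TKL2. For every pair the test takes each array as a separate unit. However, 3 of the 5 laboratory arrays are of BY4716 and 3 of the 4 vineyard arrays of RM11-1a, and the others are of different strains. The permutation p therefore covers arrays and not strains of a background. With the parental arrays alone the smallest p possible is 0.10.

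**Figure D3:**
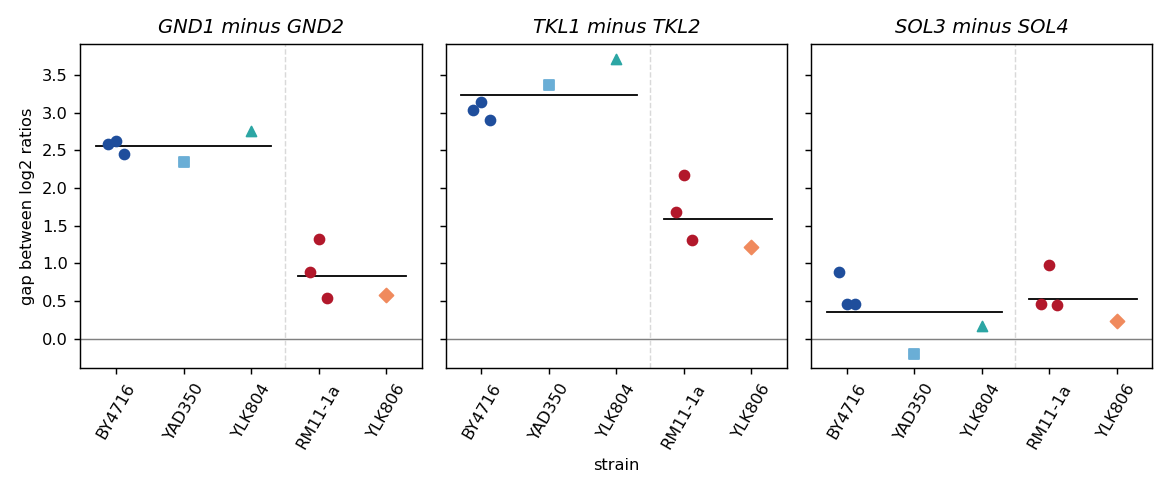
Each panel shows, for a paralog pair, the gap between the log2 ratios of the major and the minor copy (vertical axis) on every array, by strain (horizontal axis), with lines at the means of the laboratory and the vineyard background arrays. The vineyard means are 0.83 for the GND pair and 1.60 for the TKL pair, below the laboratory means of 2.55 and 3.23, while the SOL means are 0.35 and 0.53 and the points overlap.

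The copies also differed in how much they varied among arrays of RM11-1a. The SD over its 3 arrays was 0.39 for GND2, 0.47 for TKL2 and 0.30 for SOL4, against 0.02 for GND1, 0.05 for TKL1 and 0.03 for SOL3. In BY4716 the SD was 0.05 for both GND2 and GND1, 0.09 for TKL2 and 0.06 for TKL1. SOL4 had an SD of 0.25 there and SOL3 of 0.0073. Each RM11-1a array was scanned on a different day. In RM11-1a all 3 minor copies were lowest in replicate 7 and highest in replicate 9. NQM1, which encodes a second transaldolase and is the paralog of TAL1, had the same order, at -1.33, -2.17 and -1.06 in replicates 11, 7 and 9. The mean of a list of 12 general stress genes did as well, at log2 ratios of -0.64, -0.93 and -0.54. Not every gene of that list followed the order, and TMA10 was highest in replicate 7. In BY4716 the mean of the stress list was -2.35, -2.15 and -2.13, and its arrays did not overlap those of RM11-1a. The part of the stress list in the pathway's differences was not tested.

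**Figure D4:**
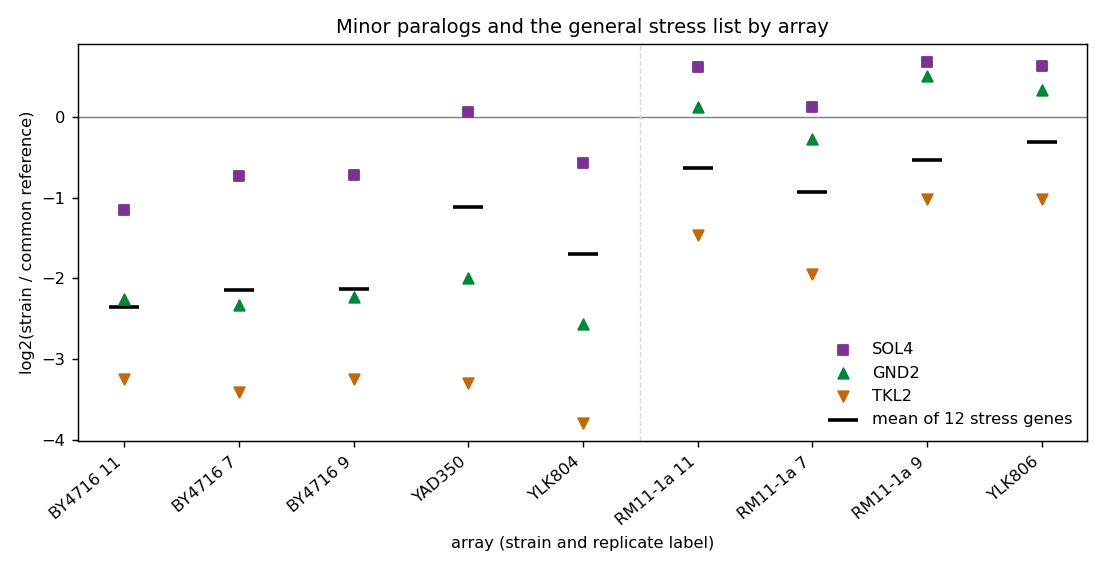
The log2 ratio of strain over reference (vertical axis) of SOL4, GND2 and TKL2 and the mean of 12 general stress genes (black bars) are shown on each of the 9 arrays (horizontal axis), laboratory background on the left of the dashed line. In RM11-1a all 4 series are lowest in replicate 7, and in YAD350 the stress mean reaches -1.11 and SOL4 0.05 while TKL2 stays at -3.29.

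YAD350 was compared with BY4716 to ask what goes with the MKT1 replacement. YAD350 was scanned alone on a day of its own, so allele, the BY4742 background and scan day cannot be told apart. In YAD350 4 of the 10 genes passed, against 47.1% of all genes, and all 4 rose, against 26.6%. ZWF1 rose by 0.70 ± 0.11 or 1.63-fold (limma adjusted p 0.0019), SOL4 by 0.92 ± 0.24 or 1.89-fold, TKL1 by 0.34 ± 0.06 or 1.27-fold and TAL1 by 0.24 ± 0.06 or 1.18-fold. With arrays centred on their median in place of loess, TKL1 and TAL1 did not pass (limma adjusted p 0.0543 and 0.136). For TKL1 the normalized channel values differed from BY4716 by 0.16 in Cy5 and by -0.18 in the Cy3 reference. GND2 at 0.27 (95% interval -0.29 to 0.84) and TKL2 at 0.0066 (-0.67 to 0.69) did not pass, and both intervals lie below the parental differences of 2.39 and 1.82. The intervals rest on the spread of both parents, and the SD of GND2 was 0.39 in RM11-1a but 0.05 in BY4716. The YAD350 value of GND2, -2.00, lay above the BY4716 range of -2.33 to -2.24. In the deposited scanner ratios GND2 was higher in YAD350 by 0.61 or 1.53-fold and TKL2 by 0.34 or 1.26-fold.

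The general stress list moved with YAD350. In that strain 11 of its 12 genes rose and none fell, against 20.5% of all genes lower, with a median of 1.10. TPS1, which makes trehalose, rose by 1.26, TMA10 by 1.49 and DDR2 by 1.24. In the parental comparison 10 of the 12 rose, against 33.1% of all genes, and 2 fell, against 29.9%. These comparisons share the BY4716 arrays. GND2 and TKL2 passed in the parental comparison and did not in YAD350, and that difference was not tested. Of the 6 genes that supply glucose 6-phosphate 5 were tested in YAD350, of which 3 rose and 1 fell, and HXK2 had no value on that array. HXK1 (hexokinase) was higher by 1.51, PGM2 (phosphoglucomutase) by 1.07 and GLK1 (glucokinase) by 1.01, and PGM1 was lower (-0.27). XKS1, xylulokinase, which feeds xylulose into the pathway, rose by 1.40 ± 0.07 in YAD350, more than any of the 10 pathway genes there.

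In both SAL1 exchanges the share of the 10 genes that passed was close to that of all genes. In YLK804 minus BY4716 2 of the 10 passed, against 21.1% of all genes. ZWF1 was higher by 0.44 ± 0.11 (limma adjusted p 0.0269) and RPE1 lower by 0.20 ± 0.06 (-0.20, limma adjusted p 0.0434). Taken channel by channel after the average signals were equalised between arrays, ZWF1 was lower than in BY4716 on the log2 scale in Cy5 (-0.30) and lower still in the Cy3 reference (-0.74). Before normalization its mean Cy5 signal was higher in YLK804, at 1178 against 966, and its Cy3 signal was 673 against 730. The YLK804 array was brighter as a whole, with a median Cy5 signal of 424 against 240 to 336 in BY4716. In Cy3 the medians were 272 against 179 to 191. Neither gene passed without replicate 11 of BY4716 (limma adjusted p 0.0752 and 0.113). Of the 12 stress genes 3 passed in YLK804, all higher, among them DDR2 by 1.11.

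In YLK806 minus RM11-1a 3 of the 10 passed, against 22.5% of all genes. TAL1 was higher by 0.24 ± 0.06 (limma adjusted p 0.0269), SOL3 lower (-0.24 ± 0.05, limma adjusted p 0.013) and RPE1 lower (-0.22 ± 0.06, limma adjusted p 0.0331). Without replicate 11 of BY4716, which sets part of the shared spread, SOL3 alone still passed, and SOL3 did not pass with scaling between arrays (-0.10, limma adjusted p 0.18). RPE1 was lower in both SAL1 strains than in the strain each was set against, but in YLK804 its call was lost under 8 of 14 alternatives and in YLK806 under 3 of 14. Both were scanned on a day apart from BY4716 and RM11-1a, so scan day and allele cannot be told apart, nor, in YLK804, can the BY4724 background. ZWF1 on the YLK806 array also had a Cy3 signal lower than in RM11-1a (-0.93). Of the stress list 4 genes passed in YLK806, all higher. GND2 (0.21, 95% interval -0.36 to 0.78) and TKL2 (0.46, -0.22 to 1.14) did not pass.

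**Figure D5:**
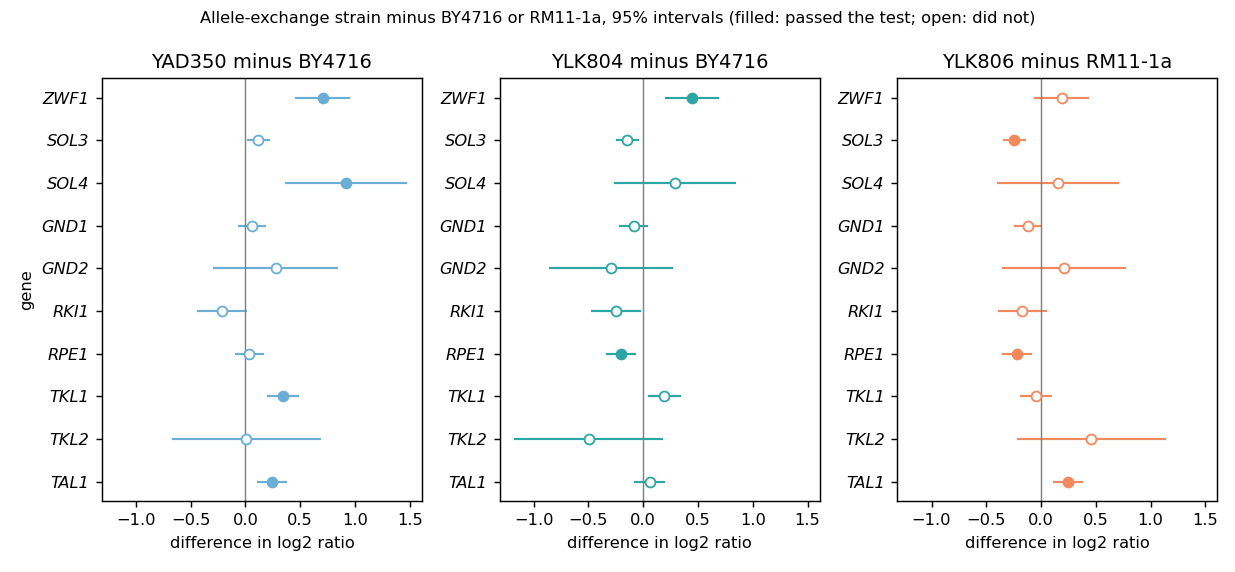
Each panel shows, for the 10 genes (vertical axis), the difference in log2 ratio between an exchange strain and BY4716, or RM11-1a for YLK806 (horizontal axis), with the 95% interval of the fit, filled where it passed the test. ZWF1 and SOL4 stand out on the right in YAD350 at 0.70 and 0.92, and most other intervals include 0.

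Among the genes around the pathway, the parental comparison gave the following counts, to be read against 33.1% of all genes higher and 29.9% lower. Of 7 further enzymes and homologs 4 rose and 1 fell. NQM1 rose by 2.23 ± 0.25, from -3.80, -3.79 and -3.66 in BY4716, so the transaldolase pair resembled the GND and TKL pairs in that the member with the lower ratio had the larger difference. The NQM1 ratio of YAD350 was -3.67, that of YLK804 -3.89 and that of YLK806 -1.02, apart by background on all 9 arrays. XKS1 rose by 0.66 and YDR248C, a putative gluconokinase, by 0.83, while SHB17, a sedoheptulose bisphosphatase that feeds ribose synthesis, was lower (-0.60 ± 0.04).

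Of 8 NADPH sources outside the pathway and NAD kinases 6 rose and 1 fell. YEF1, an NADH kinase, rose by 1.51, MAE1, malic enzyme, by 0.80, ALD6, the cytosolic acetaldehyde dehydrogenase, by 0.64 and POS5, the mitochondrial NADH kinase, by 0.29. Of 9 genes of NADPH-dependent systems, namely thioredoxin and glutathione with OYE2 and OYE3 added, 6 rose and 1 fell. GRX2 was higher by 0.78, TSA1 by 0.64, GLR1, glutathione reductase, by 0.61 and TRX2 by 0.58. OYE2 was the gene that fell (-0.58), and OYE3 rose by 0.32. All 4 tested genes of pentose and polyol entry rose, led by YJR096W at 1.50 and GRE3, an aldose reductase, at 0.82.

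Supply of glucose 6-phosphate split evenly, with 3 of 6 genes higher and 3 lower. HXK1 was higher by 1.72, PGM2 by 1.62 and GLK1 by 0.48, whereas HXK2, the main glucose-phosphorylating enzyme on glucose, stood at -1.01, PGI1 at -0.46 and PGM1 at -0.21. The genes that draw on ribose 5-phosphate and erythrose 4-phosphate moved little or the other way. Of 5 PRPP synthetase genes, which use ribose 5-phosphate, 1 rose (PRS5, 0.20) and 1 fell (PRS3, -0.13). Of 4 genes at the entry to aromatic amino acid synthesis, which starts from erythrose 4-phosphate, none rose and 2 fell, ARO2 (-0.47) and ARO3 (-0.45).

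Among 7 regulators 4 rose and 2 fell. STB5, a factor known to act on pathway genes under oxidative stress, rose by 0.35, YAP1, the main oxidative stress factor, by 0.22, MSN4 by 1.00 and MSN2 by 0.25, both factors of the general stress response. The glycolytic factors GCR1 and GCR2 were lower, at -0.34 and -0.32.

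The genes whose ratios ran most like those of the 10 were named by Pearson r over the 9 arrays among 5830 genes. These arrays share a reference and fall into the 2 backgrounds, so a high r mainly says that genes split by background alike, and it is given as a description. SOL3 and GND1 were among each other's 3 closest genes, at r = 0.997, beside TIM11 and AAD15 for SOL3 and MNS1 and AIM2 for GND1. The closest to SOL4 were TFS1, TSL1 and GRE3, at r from 0.986 to 0.989, and TSL1 is in the stress list. GND2 was closest to MRP20, AGX1 and YBR116C, and TKL2 to PIR3, GRE1 and NQM1. No gene had its own paralog among its closest. GND2 ranked 108 in the list of GND1 (r = 0.975), TKL2 ranked 867 in that of TKL1 (r = 0.827) and SOL4 ranked 838 in that of SOL3 (r = 0.868).

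For the remaining genes, ZWF1 was closest to YHR112C, YMR119W-A and APQ12, TKL1 to URA2, SCW10 and YPS1, TAL1 to SOL1, PIC2 and TRS31, RKI1 to MCM22, MNE1 and CIN2, and RPE1 to PEX6, CIT3 and THI11. Among the 10 themselves GND2 and TKL2 had r = 0.99. RKI1 ran against the others except RPE1, with r between -0.86 and -0.58 for 8 genes and 0.02 for RPE1.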

How the data were processed

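The deposited scanner files hold a spot's intensity in each channel, read with Agilent Feature Extraction 8.5.1.1 on 7 arrays and 9.1.3.1 on YLK804 and YLK806, per the file headers. A log10 ratio (Cy5 to Cy3) was deposited beside it, after that software's background subtraction and dye normalization, per the file headers. The authors' deposited value table of log2 ratios equalled it within 0.0005.

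Intensities were corrected with normexp (offset 50) and loess in limma 3.58.1 under R 4.3.3, with control spots given no weight in loess. Spots of a gene were then averaged, leaving out spots flagged as outliers. A gene was tested if 3 or more arrays had it well above background in the Cy5 or the Cy3 channel. A limma model with 5 groups was fitted to 9 arrays, whose spread rests on the 6 parental arrays (4 residual degrees of freedom), and p-values were adjusted over all genes tested. The script was tested on simulated data. Paralog gaps were compared with an exact permutation test. Probe sequences were not used here, so signal shared between paralogs was not checked.

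The rule for the 10 genes uses names alone, but the pathway, its genes and the lists were chosen with earlier results of these data known. Named were all 10 genes, up to 4 called genes of a list by smallest parental p (any gene of lists of up to 7), and each gene's 3 closest by r. OYE2 and OYE3 were named in addition. Other settings tried were the background correction, the normalization, the filter on dim genes, the deposited ratios, an intensity trend, blocks for scan day or replicate number, and leaving out parental arrays in turn.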

Additional observations from a re-analysis of the deposited data

How the results depend on the processing

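No value changed sign where it was called. Of 870 values recomputed for single genes, 837 kept their side of the threshold, and 17 of 27 calls kept it under every alternative. Genes called among the 10 in YLK804 minus BY4716 went from 2 to 1 with an offset of 0, the deposited ratios, no background correction, median centring or an intensity trend, and to between 0 and 2 with a parental array left out. In YLK806 minus RM11-1a they went from 3 to 1 with an offset of 0 or the deposited ratios, and to between 1 and 4 with an array left out. In YAD350 minus BY4716 they went from 4 to 2 with median centring. The gap differences by background were -1.64 (GND pair) and -1.30 (TKL pair) with parental arrays alone, where 0.10 is the smallest exact p. With a parental array left out they lay between -1.88 and -1.62 (GND pair) and between -1.83 and -1.54 (TKL pair). There 5 against 3 arrays cannot pass after adjustment. All these sizes also depend on the offset of 50. Over all genes, calls went from 1240 to 629 in YLK804 and from 1320 to 800 in YLK806 with median centring, to 590 and 856 at the lowest with an array left out, and from 50 to between 28 and 80 for the difference of differences. With the replicate block 10 of the 10 genes passed between the parents, but the numbers do not pair the arrays (r of deviations -0.21, -0.18 and 0.14). The cause of these changes was not tested.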

Other observations

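The paired lactonase and dehydrogenase genes lie near each other in the R64 gene order, SOL3 and GND1 with 20 protein-coding genes between them and SOL4 and GND2 with 7. This was looked at after the values were seen. Of the 17 tested genes between SOL3 and GND1, 4 were higher in RM11-1a, 10 were lower and 3 did not pass, with a median difference of -0.14. Of those 17, 1 gene, CTR2, a copper transporter, reached a difference of 0.79, in the range of GND1 (0.76) and below SOL3 (1.37). Of the 6 tested genes between SOL4 and GND2, 2 were higher, 3 were lower and 1 did not pass, and their differences ran from -0.76 to 0.17, below the differences of SOL4 and GND2.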
